A study of Mus musculus with 2 samples.

Results

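Apln, which encodes the peptide ligand apelin, and Aplnr, which encodes its receptor, were followed in single cells of mouse femur and tibia. They are 2 of the 28380 genes in the deposited tables and were picked by name, as ligand and receptor, with no threshold on a measured value. Aplnr is also called Apj, and its regulatory sequence drove the Cre recombinase of the study's gain-of-function mice, so that its level bears on which cells could switch on the Dach1 transgene.

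Apelin is made as a precursor protein that is cut to shorter peptides, which bind the Apelin receptor, a G-protein-coupled receptor. In growing vessels the ligand is known from tip cells at the sprouting front and the receptor from capillary and venous endothelium. Signalling through the receptor is known to act on endothelial migration, proliferation and nitric oxide synthesis, and Apelin RNA is known to respond to hypoxia.

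Both groups were mice at postnatal day 30 on the C57BL/6 strain, given tamoxifen soon after birth. Control mice had the genotype label Dach1OE +/f, a Dach1 transgene behind a stop that Cre removes, without a Cre. Dach1OE mice had the label Apj CreERT2 - Dach1OE +/f, the same transgene together with a tamoxifen-dependent Cre under control of Aplnr. By the study's methods the mice also came from crosses with the mT/mG reporter, and whether that allele was present in a given mouse is not given in the sources used here. Each group was 1 library of cells from 2 mice, depleted of CD45+, CD117+ and lineage+ cells, so no test between groups was possible and every interval covers counting error only. How the driver allele was built, and whether it carries or replaces Aplnr sequence, is also not given in the sources used here, and its part in the Aplnr counts was not tested.

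Apln (ENSMUSG00000037010.7) lies on chromosome X of GRCm38 at 48025146 to 48034853 on the minus strand, with 3 exons of which 2 are coding. Its protein has 77 residues, and the active peptides come from the end of it. Aplnr (ENSMUSG00000044338.9) is a single-exon gene on chromosome 2 at 85136225 to 85139923 on the plus strand, and encodes 377 residues. Neither gene overlaps another annotated gene, so intronic or antisense counting of a neighbour does not enter their values. The coding bases of apelin-36, the last 36 codons of Apln before the stop codon, are shown because they are what the ligand transcript delivers, with the 39 bases of apelin-13, the shortest of the commonly used peptides, in capitals. They were read from GENCODE vM21 transcripts and lie within 1 exon, at chrX:48028302-48028409 on the minus strand.
Apln, apelin-36: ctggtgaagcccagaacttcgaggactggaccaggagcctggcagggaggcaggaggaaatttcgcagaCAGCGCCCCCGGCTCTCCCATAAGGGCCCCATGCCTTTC

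The tables held 28720 Control and 32028 Dach1OE cells, of which 26466 and 29317 had 500 to 6000 genes and under 25% mitochondrial unique molecular identifiers (UMIs, 1 per captured RNA molecule). The kept cells had 879 cell indices in common between the libraries, and 196 of these pairs had the same class call. Pairs in which both cells were not gated are among them, and 28.8% of Control and 30.4% of Dach1OE kept cells were not gated. A cell was called EC-like (endothelial) when at least 3 of 8 EC markers had a UMI and no other class reached more than 0.5 of that number. This gave 8562 ECs in Control and 8665 in Dach1OE, with median depths of 2722 and 2708 UMIs. Subtypes were then gated on lists of 8 markers that held neither member nor Dach1. They were named after marrow sinusoidal ECs (bmEC), metaphyseal ECs (mpEC), arterial ECs (aEC), remodelling ECs of type R vessels (rEC), sprout tips (tip) and proliferating ECs (pEC), and ECs that no list claimed are called ungated.

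These gates are ranges of marker counts and not sharp types. Cells within 1 marker of the cut made up 6.49% of bmEC-like cells in Control and 16.3% in Dach1OE, but 76.0% and 83.1% of tip-like cells, 46.6% and 62.4% of mpEC-like cells, and 44.2% and 57.0% of rEC-like cells. The subtypes also differed in size between libraries, with 5899 and 4062 bmEC-like, 745 and 787 mpEC-like, 334 and 1004 aEC-like, 385 and 539 rEC-like, 75 and 272 tip-like, 380 and 559 pEC-like and 687 and 1421 ungated cells. When ECs were clustered without the members and Dach1, bmEC-like cells lay mostly in a pair of clusters in Control (46.2% and 43.1%), whereas 62.8% of those of Dach1OE lay in another cluster with 56 Control and 3642 Dach1OE cells. aEC-like cells likewise lay mostly in different clusters, with 68.3% in 1 cluster in Control and 81.1% in another in Dach1OE. Of tip-like cells 66.7% of Control and 13.6% of Dach1OE lay in the main cluster of mpEC-like cells, which the subtype lists named mpEC. The largest shares of Dach1OE tip-like cells were 46.7% in another cluster named mpEC and 28.3% in one named bmEC. rEC-like cells shared their main cluster, with 80.3% in Control and 50.3% in Dach1OE, beside 21.2% of Dach1OE in a cluster with 10 Control and 1083 Dach1OE cells. mpEC-like cells shared theirs with 90.7% and 48.7%, beside 34.1% of Dach1OE in that same cluster of few Control cells, and pEC-like cells lay mostly in 1 cluster in both libraries. Of ungated ECs 63.9% of Control and 13.9% of Dach1OE lay in the main mpEC-like cluster. A further 33.9% and 27.2% of Dach1OE ungated ECs lay in the clusters with 56 and 10 Control cells. Values compared within these gates are therefore values of cells that share markers and not of cells that cluster together.

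Receptor and ligand RNA were found almost wholly in endothelium. In Control 81.4% of 19944 Aplnr UMIs and 78.7% of 3338 Apln UMIs lay in gated ECs, and in Dach1OE 79.0% of 20336 and 75.7% of 5431 did. With the addition of ungated cells that showed at least 3 EC markers, these shares reached 98.0% and 97.9% for Aplnr and 92.8% and 94.4% for Apln. ECs held Aplnr at 571 CPM (UMIs of the gene for every 1000000 UMIs of the class, exact Poisson interval 563 to 580) in Control and 570 CPM (562 to 579) in Dach1OE. No other gated class reached more than 9.22 CPM of Aplnr or 9.04 CPM of Apln in either library.

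Outside the endothelium the level of Aplnr was low in every class, including cells that should lack it. Erythroid-like cells had 3.86 and 2.10 CPM in Control and Dach1OE, and leukocyte-like cells 5.70 and 5.22 CPM. At a common depth of 1000 UMIs per cell, 0.364% and 0.262% of erythroid-like cells and 0.632% and 0.612% of leukocyte-like cells had an Aplnr UMI, against 36.2% (35.2 to 37.3) and 33.8% (32.8 to 34.8) of ECs. Without thinning the shares were 60.6% and 54.3% in ECs, and 2.46% and 1.57% in erythroid-like cells of median depth 7026 and 7606 UMIs. Values at the erythroid level are read here as background.

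The 2 genes did not keep 1 ratio across classes. Control ECs had 6.18 Aplnr UMIs for each Apln UMI (5.93 to 6.44) and erythroid-like cells 3.20 (1.53 to 7.30), whereas chondrocyte-like cells had 1.20 (0.873 to 1.65). In Dach1OE the ratio was 3.91 (3.78 to 4.04) in ECs and 0.843 (0.662 to 1.07) in chondrocyte-like cells. Marrow stromal cells, marked by Lepr, also had few receptor UMIs for each ligand UMI, 1.5 (0.871 to 2.63) and 1.06 (0.505 to 2.25). The Apln level in chondrocyte-like cells was nevertheless no more than 2.66 CPM (2.09 to 3.34) in Control and 3.61 CPM (3.06 to 4.23) in Dach1OE, from 75 and 153 UMIs, and in erythroid-like cells it was 1.21 (0.579 to 2.22) and 0.552 CPM (0.179 to 1.29).

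**Figure D1:**
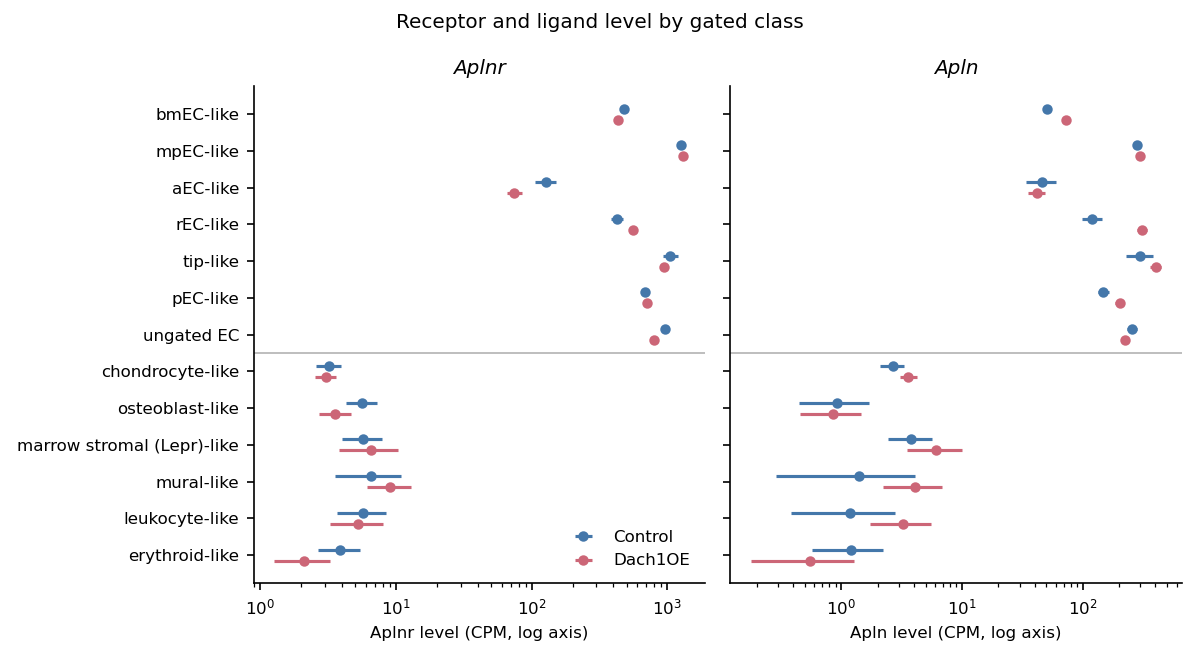
Level of Aplnr (left) and Apln (right) on the x axis, in CPM on a log axis, for 7 EC gates (above the grey line) and 6 other classes, with Control in blue and Dach1OE in red; points are summed UMIs over the class total and bars exact Poisson intervals. All EC gates shown lie above all other classes for both genes, with aEC-like cells nearest to them.

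Lymphatic-like ECs, 57 cells in Control and 21 in Dach1OE, were few and are given apart. Among the other 7 gates of Control the ligand was highest in tip-like and mpEC-like cells and lowest in bmEC-like and aEC-like cells. In Control the order of Apln levels was tip-like 298 CPM (230 to 379), mpEC-like 280 (259 to 302), ungated 258 (234 to 284), pEC-like 149 (133 to 166), rEC-like 119 (97.8 to 144), bmEC-like 50.5 (47.4 to 53.7) and aEC-like 45.7 CPM (33.7 to 60.6). The intervals of the first 3 overlapped, as did those of pEC-like with rEC-like cells and of bmEC-like with aEC-like cells. In Dach1OE rEC-like cells moved up to the second place, with tip-like cells at 402 CPM (359 to 449), rEC-like cells at 310 (281 to 340), mpEC-like at 297 (277 to 319), ungated at 226 (211 to 242), pEC-like at 203 (187 to 219), bmEC-like at 72.2 (67.6 to 77.0) and aEC-like at 41.6 CPM (35.1 to 49.0). There the rEC-like and mpEC-like intervals overlapped, and so did those of ungated and pEC-like cells. mpECs line the capillaries beneath the growth plate, and their gate held 24.8% of the Apln UMIs of Control ECs with 8.20% of all EC UMIs.

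The receptor followed a similar order with mpEC-like cells at its head. Control levels of Aplnr were 1254 CPM (1209 to 1301) in mpEC-like, 1051 (920 to 1195) in tip-like, 960 (914 to 1009) in ungated, 681 (647 to 718) in pEC-like, 476 (467 to 486) in bmEC-like, 424 (383 to 469) in rEC-like and 127 CPM (106 to 150) in aEC-like cells. Only tip-like with ungated, and bmEC-like with rEC-like cells, overlapped as neighbours in that order. Dach1OE levels were 1297 CPM (1255 to 1340) in mpEC-like, 943 (877 to 1013) in tip-like, 793 (765 to 822) in ungated, 711 (681 to 742) in pEC-like, 555 (517 to 596) in rEC-like, 431 (420 to 443) in bmEC-like and 74.5 CPM (65.6 to 84.2) in aEC-like cells. No neighbours overlapped here, and rEC-like cells stood above bmEC-like cells. Lymphatic-like ECs gave 3 Aplnr UMIs in each library, at 21.8 CPM (4.50 to 63.8) in Control, below aEC-like cells, and 55.1 CPM (11.4 to 161) in Dach1OE. They gave 0 Apln UMIs in Control, with an upper Poisson bound of 26.8 CPM that lies below the other 7 gates, and 3 in Dach1OE.

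Against the other ECs of the same library, aEC-like cells were low in receptor level, by a log2 ratio of −2.22 (−2.47 to −1.97) in Control and −3.10 (−3.29 to −2.92) in Dach1OE. mpEC-like cells were 1.30 (1.24 to 1.36) and 1.40 (1.35 to 1.45) above the other ECs for Aplnr, and 1.89 (1.76 to 2.01) and 1.20 (1.09 to 1.31) for Apln. For rEC-like cells the ligand was 0.38 (0.089 to 0.66) above the other ECs in Control and 1.17 (1.03 to 1.32) in Dach1OE.

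Per cell, both genes were detected as a few molecules. Of Control ECs 7326 of 8562 had no Apln UMI and 69 had 6 or more, and of Dach1OE ECs 6874 of 8665 had none and 135 had 6 or more, with at most 15 and 23 UMIs in 1 cell. Aplnr was absent from the counts of 3372 and 3960 ECs, and 754 and 838 ECs had 6 or more UMIs. Cells with 6 or more Aplnr UMIs made up 25.6% and 32.5% of mpEC-like cells and 25.5% and 24.5% of pEC-like cells, which were deeper (medians 5028.5 and 4724 UMIs in pEC-like cells against 2697 and 3105 in mpEC-like cells). At 1000 UMIs per cell the receptor was seen in 65.7% (62.1 to 69.2) of Control and 65.8% (62.3 to 69.1) of Dach1OE mpEC-like cells, but in 9.54% (6.57 to 13.3) and 4.94% (3.66 to 6.49) of aEC-like cells. The unthinned shares were 87.2% and 88.3% in mpEC-like cells and 17.7% and 12.8% in aEC-like cells.

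The design sets Dach1OE against Control ECs. Over all ECs the ligand was higher in Dach1OE and the receptor was not. Apln was at 92.5 CPM (89.0 to 96.1) in Control and 146 CPM (142 to 151) in Dach1OE, a log2 ratio of 0.66 (0.59 to 0.73) or 1.58-fold. Aplnr was at 571 and 570 CPM, a log2 ratio of −0.0028 (−0.034 to 0.029). Among 13566 genes with at least 50 UMIs in ECs over both libraries, 8.15% were at least 1.5-fold higher and 6.39% at least 1.5-fold lower in Dach1OE, and the median log2 ratio was 0.038. At 1000 UMIs per cell an Apln UMI was seen in 6.83% (6.30 to 7.39) of Control and 9.46% (8.84 to 10.1) of Dach1OE ECs, with 230 and 303 shallower cells left out, and in 14.4% and 20.7% without thinning.

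About as large as the difference within gates was the part of the Apln ratio that went with the make-up of the endothelium by gate. Gate shares need not be shares of cell types, because the gate markers can themselves differ between libraries. The bmEC gate counts UMIs of Stab2 and Flt4, which the study reports as decreased in Dach1OE ECs, and the part of this was not tested. Ungated ECs were 8.02% of Control and 16.4% of Dach1OE ECs. bmEC-like cells, low in Apln, held 70.4% of the EC UMIs in Control and 46.1% in Dach1OE. With the 7 gates of at least 50 cells weighted as in Control, Apln was at 92.9 CPM in Control and 119 CPM in Dach1OE, a log2 ratio of 0.35 with a counting SE of 0.038, and with equal weights the ratio was 0.37 with an SE of 0.060. Control levels at the Dach1OE make-up alone gave 121 CPM, a log2 ratio of 0.38 over the Control make-up. For Aplnr the same weights gave −0.090 with an SE of 0.017 and −0.050 with an SE of 0.028, and the make-up alone 0.088. Near-equal receptor levels over all ECs thus went with slightly lower weighted levels within gates and a small rise with the make-up. Gates both rich and poor in receptor grew beside the smaller bmEC-like share. Ungated ECs went from 5.87% to 13.4% of EC UMIs, and aEC-like cells, the poorest in receptor of the 7 gates, from 3.69% to 12.2%.

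The study places rECs around trabecular bone, but rEC-like cells were gated on markers alone and their location was not measured. Over all cells of each gate the difference in Apln was largest in rEC-like cells. There the level was 119 CPM in Control (108 UMIs) and 310 CPM in Dach1OE (438 UMIs), a log2 ratio of 1.38 (1.07 to 1.70) or 2.60-fold, while 12.2% of the genes tested in this gate were at least 1.5-fold higher and 8.58% at least 1.5-fold lower. Rated by cells at 1000 UMIs, 8.09% (5.52 to 11.3) of Control and 16.9% (13.7 to 20.4) of Dach1OE rEC-like cells had an Apln UMI, and 14.0% and 29.9% before thinning. The receptor in these cells was 0.39 higher (0.21 to 0.57), under 1.5-fold. Restricting the gate to cells with at least 3 rEC markers gave 1.70 for Apln.

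The other gates differed less in the ligand. In bmEC-like cells the log2 ratio of Apln was 0.52 (0.39 to 0.64), where 5.86% of genes were at least 1.5-fold higher and 4.74% lower. Tip-like cells had 0.43 (0.048 to 0.84), from 66 and 319 UMIs, beside 12.8% and 9.43% of genes, and pEC-like cells 0.45 (0.25 to 0.65), beside 5.23% and 5.95%. None of these 3 ratios reached 1.5-fold, but clusters named bmEC gave 0.85 (0.73 to 0.98) and tip-like cells under 10% mitochondrial UMIs 0.92 (0.45 to 1.42), both past it. The cluster named tip, which held under 10% of the tip-like cells of either library, gave 0.14 (−0.36 to 0.65). The interval held 0 in mpEC-like cells (0.088, −0.062 to 0.24, beside 4.77% and 5.05%), though not in clusters of that name (0.25, 0.14 to 0.35), and in aEC-like cells (−0.14, −0.62 to 0.37). Clusters named mpEC pooled a cluster of 1726 Control and 938 Dach1OE cells with a cluster of 10 and 1083. In ungated ECs Apln was slightly lower in Dach1OE (−0.19, −0.36 to −0.023), with an interval that held 0 from 2000 UMIs per cell (−0.16, −0.36 to 0.036). These ungated ECs lay mostly in different clusters in the 2 libraries.

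The receptor was more than 1.5-fold lower in 1 gate. In aEC-like cells Aplnr was at 127 CPM in Control (133 UMIs) and 74.5 CPM in Dach1OE (256 UMIs), a log2 ratio of −0.77 (−1.07 to −0.45), where 7.74% of genes were at least 1.5-fold lower and 11.0% higher. Cells of this gate with at least 3 aEC markers gave −0.88 (−1.21 to −0.55), whereas clusters named aEC gave −0.15 (−0.44 to 0.14). Those clusters pooled a cluster of 324 Control and 164 Dach1OE cells with a cluster of 115 and 1249. The source of the gap between gate and clusters was not tested. In bmEC-like cells the log2 ratio of Aplnr was −0.14 (−0.19 to −0.095), and −0.011 (−0.056 to 0.035) in clusters of that name, and in ungated ECs −0.28 (−0.36 to −0.19), while in mpEC-like (0.048, −0.023 to 0.12), tip-like (−0.16, −0.37 to 0.062) and pEC-like cells (0.061, −0.036 to 0.16) the interval held 0. From 2000 UMIs per cell the mpEC-like value was 0.097 (0.021 to 0.17), clear of 0.

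**Figure D2:**
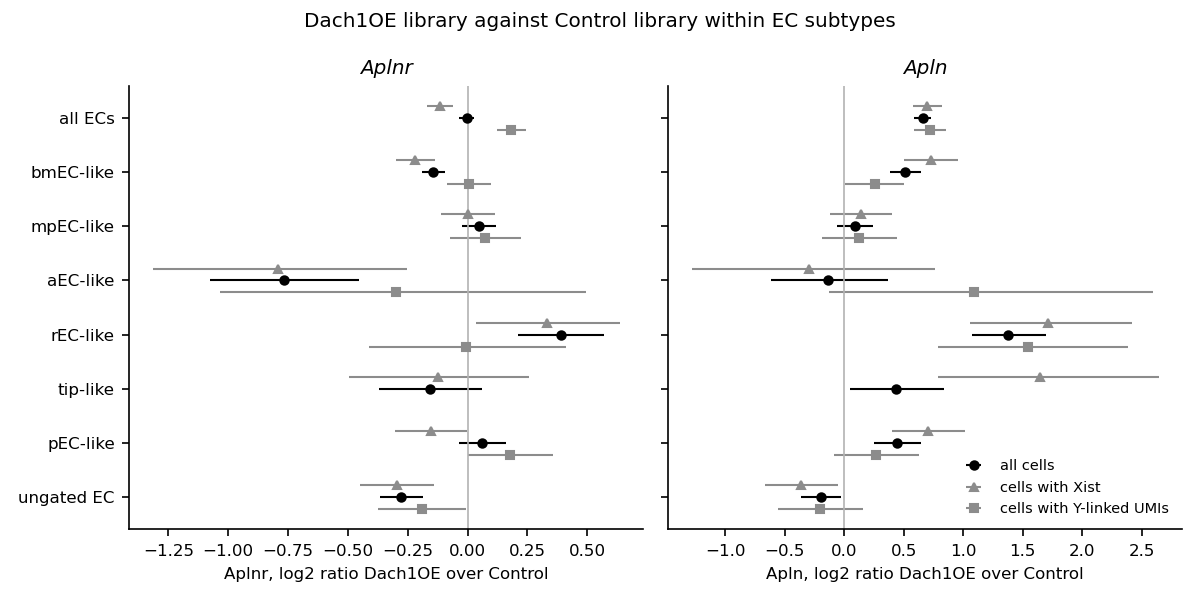
Log2 ratio of CPM, Dach1OE over Control (x axis), for Aplnr (left) and Apln (right) in all ECs and in 7 EC gates, over all cells (black circles), cells with Xist UMIs (grey triangles) and cells with Y-linked UMIs (grey squares), with exact conditional binomial intervals; tip-like cells with Y-linked UMIs were too few in Control. Apln in rEC-like cells stands at 1.38 over all cells and above 1.5 in both kinds of cell.

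Each library mixed male and female cells. Cells with a Xist UMI and no Y-linked UMI numbered 2723 and 2658 of the ECs, and cells with a Y-linked UMI and no Xist 2080 and 1992. With 2 mice in a library, each kind of cell then came from 1 mouse, so sex and mouse cannot be told apart. For Apln over all ECs both kinds gave nearly the same value, 0.70 (0.58 to 0.82) with Xist and 0.72 (0.59 to 0.86) with Y-linked UMIs. In rEC-like cells Apln was at 75.7 CPM in Control and 248 CPM in Dach1OE with Xist (24 and 101 UMIs) and at 110 and 321 CPM with Y-linked UMIs (17 and 95 UMIs), log2 ratios of 1.71 (1.05 to 2.42) and 1.54 (0.79 to 2.38). Other gates were less alike, with 0.73 (0.50 to 0.96) and 0.26 (0.010 to 0.50) in bmEC-like cells and 0.70 (0.40 to 1.01) and 0.27 (−0.083 to 0.63) in pEC-like cells. Tip-like cells with Xist gave 1.65 (0.79 to 2.64), from 12 and 120 UMIs, close to the value of rEC-like cells.

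For the receptor over all ECs the 2 kinds of cell went opposite ways. Aplnr was at 635 CPM in Control and 587 CPM in Dach1OE in cells with Xist (−0.11, −0.17 to −0.062), and at 505 and 574 CPM in cells with Y-linked UMIs (0.18, 0.12 to 0.24). Thus the near-zero ratio over all ECs was found in neither kind. This split leaves out ECs with neither Xist nor Y-linked UMIs (3497 in Control and 3754 in Dach1OE) and ECs with both (262 and 261). No ratio was computed for those cells. In ungated ECs Aplnr was lower in both kinds, −0.30 (−0.45 to −0.14) with Xist and −0.19 (−0.37 to −0.0072) with Y-linked UMIs. The lower receptor level of aEC-like cells was −0.79 (−1.32 to −0.25) with Xist, from 50 and 82 UMIs, and −0.30 (−1.03 to 0.49) with Y-linked UMIs, from 20 and 70 UMIs. With Y-linked UMIs the Aplnr ratio was −0.0061 (−0.41 to 0.41) in rEC-like and 0.0079 (−0.085 to 0.10) in bmEC-like cells.

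ECs of Dach1OE held fewer receptor UMIs for each ligand UMI. Over all ECs Control had 6.18 (5.93 to 6.44) and Dach1OE 3.91 (3.78 to 4.04). It differed most between libraries in rEC-like cells, at 3.56 (2.86 to 4.44) and 1.79 (1.59 to 2.02), and in bmEC-like cells, at 9.43 (8.84 to 10.1) and 5.98 (5.58 to 6.41). In mpEC-like cells it was 4.48 (4.12 to 4.89) and 4.36 (4.04 to 4.71) and in ungated ECs 3.72 (3.34 to 4.15) and 3.51 (3.25 to 3.79), with overlapping intervals.

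**Figure D3:**
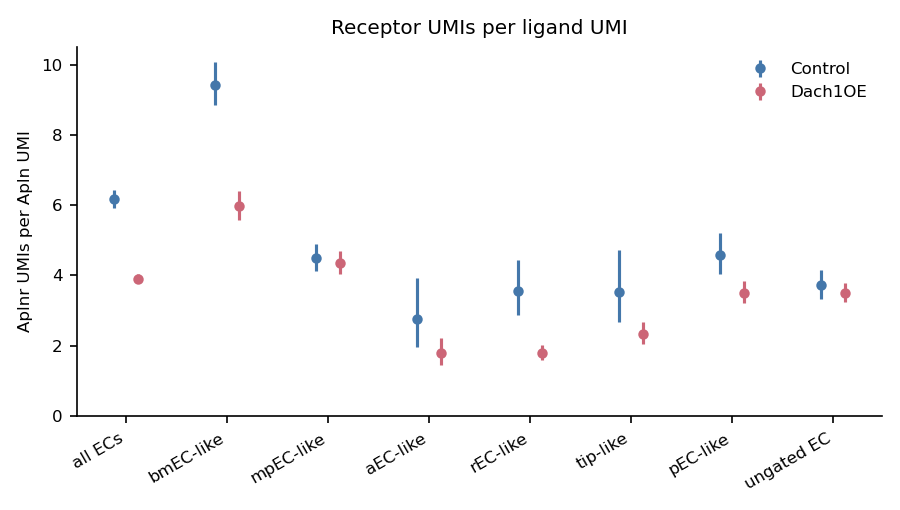
Aplnr UMIs for each Apln UMI (y axis, from 0) in all ECs and in 7 EC gates, Control in blue and Dach1OE in red, with exact binomial intervals. Control bmEC-like cells stand highest at 9.43, and the Dach1OE aEC-like and rEC-like cells lowest at 1.79.

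Over all ECs the receptor was detected more often in cells with a ligand UMI than in cells without. At 1000 UMIs per cell, 313 of 8332 Control ECs had both, 256 Apln alone, 2707 Aplnr alone and 5056 neither, and of 8362 Dach1OE ECs the numbers were 419, 372, 2407 and 5164. The receptor was seen in 55.0% (50.8 to 59.1) of Control ECs with an Apln UMI and in 34.9% (33.8 to 35.9) of those without, and in 53.0% (49.4 to 56.5) and 31.8% (30.7 to 32.9) in Dach1OE. Before thinning 11.9% and 16.4% of ECs had both. Within bmEC-like cells, a gate low in ligand, the shares were 47.3% (40.6 to 54.1) against 31.7% (30.5 to 32.9) in Control and 45.5% (38.2 to 52.9) against 27.0% (25.6 to 28.4) in Dach1OE. In the other 6 gates the intervals overlapped in both libraries, and the order was the reverse in Control rEC-like and pEC-like cells. The latter were at 42.5% (27.0 to 59.1) with an Apln UMI against 44.1% (38.7 to 49.6) without. Control rEC-like cells were 6 with both and 24 with Apln alone, a share interval of 7.71% to 38.6% against 29.6% (24.8 to 34.8), and those of Dach1OE gave 37.5% (27.4 to 48.5) against 34.8% (30.3 to 39.5).

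**Figure D4:**
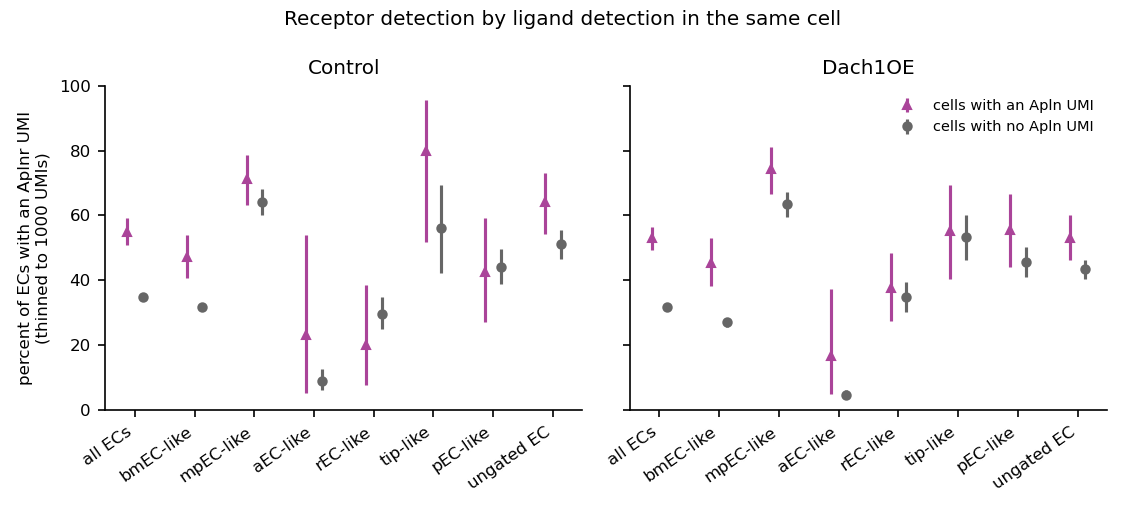
Percent of ECs with an Aplnr UMI (y axis) after thinning to 1000 UMIs per cell, for cells with an Apln UMI (purple triangles) and without (grey circles), in all ECs and 7 EC gates of Control (left) and Dach1OE (right), with exact binomial intervals. Over all ECs and in bmEC-like cells the triangles lie above the circles in both libraries, and in the other 6 gates the intervals overlap.

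Dach1 is a transcription factor gene on chromosome 14 (97786853 to 98169765, minus strand, where 2 other annotated genes overlap it). The transgene that the Aplnr-driven Cre switches on is separate from this gene, and Dach1 serves as the check of the labels. RNA of the mouse's own gene and of the transgene were not told apart in the counts. Dach1 was at 5.07 CPM in Control and 201 CPM in Dach1OE ECs. In Control it was highest in rEC-like cells, at 30.9 CPM (28 UMIs), followed by tip-like cells at 13.5 CPM (3 UMIs). The Dach1 level across the 7 gates of Dach1OE other than lymphatic-like cells did not follow that of the receptor. mpEC-like cells, highest in Aplnr, had the lowest Dach1 level of these gates, 139 CPM, while aEC-like cells, lowest of these in Aplnr, had 238 CPM. The other gates had 169.5 CPM (pEC-like), 193 CPM (bmEC-like), 208 CPM (rEC-like), 247 CPM (ungated) and 303 CPM (tip-like). As background, Cre recombination is permanent and is passed on to daughter cells, and it was induced soon after birth, whereas the receptor level was measured at postnatal day 30.

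In single cells of Dach1OE the driver gene and Dach1 did not go together either. ECs with an Aplnr UMI held Dach1 at 187 CPM (4705 cells) and ECs without one at 225 CPM (3960 cells), a log2 ratio of −0.27 (−0.34 to −0.19). Only in bmEC-like cells was the interval clear of 0 (−0.37, −0.48 to −0.26), and in the other 6 gates the ratio lay between −0.080 and 0.055 with intervals that held 0. Split the other way, Aplnr was at 542 CPM in 3272 ECs with a Dach1 UMI and at 593 CPM in 5393 ECs without, a log2 ratio of −0.13 (−0.18 to −0.085). Among all genes tested in that split 1.66% were at least 1.5-fold higher and 3.89% lower, with a median log2 ratio of 0.0067. The sign depended on the make-up of the endothelium, since with equal weights of the gates the ratio was 0.024 (−0.036 to 0.085). It was −0.28 (−0.36 to −0.20) in bmEC-like cells, 0.16 (0.057 to 0.25) in mpEC-like cells and 0.21 (0.0052 to 0.42) in rEC-like cells.

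Apln was at 147 CPM in Dach1-positive and 145 CPM in Dach1-negative ECs of Dach1OE (log2 ratio 0.011, −0.078 to 0.10). With equal weights of the gates the ratio was 0.15 (0.039 to 0.27), clear of 0. In rEC-like cells it was at 343 CPM with Dach1 and 290 CPM without (0.24, −0.037 to 0.52), both above the 119 CPM of Control. A ratio clear of 0 was found in aEC-like cells at 54.5 and 26.5 CPM (1.04, 0.50 to 1.59, from 101 and 42 UMIs) and in tip-like cells at 463 and 325 CPM (0.51, 0.17 to 0.86), and 1 aEC-like cell held 22 of the Apln UMIs. With Dach1 status called again at 1000 UMIs per cell, which puts many positive cells among the negative, the shares of cells with an Apln UMI were 2.19% (0.599 to 5.50) and 2.53% (1.56 to 3.89) in aEC-like cells. In tip-like cells these shares were 18.0% (9.36 to 30.0) and 19.2% (14.0 to 25.4). Positive cells were deeper, with a median of 3351 against 2420 UMIs, so a cell without a Dach1 UMI need not lack the transgene RNA.

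Outside the endothelium Dach1 was at 4.76 CPM in Control and 11.5 CPM in Dach1OE in marrow stromal cells (log2 ratio 1.27, 0.49 to 2.05) and at 4.66 and 10.8 CPM in mural cells, which wrap vessels (1.21, 0.17 to 2.38). In erythroid-like cells it was at 5.43 and 7.73 CPM (0.51, −0.051 to 1.08), and the part of free RNA in the stromal and mural values was not tested. Leukocyte-like cells held 54.6 and 49.5 CPM in the 2 libraries.

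**Figure D5:**
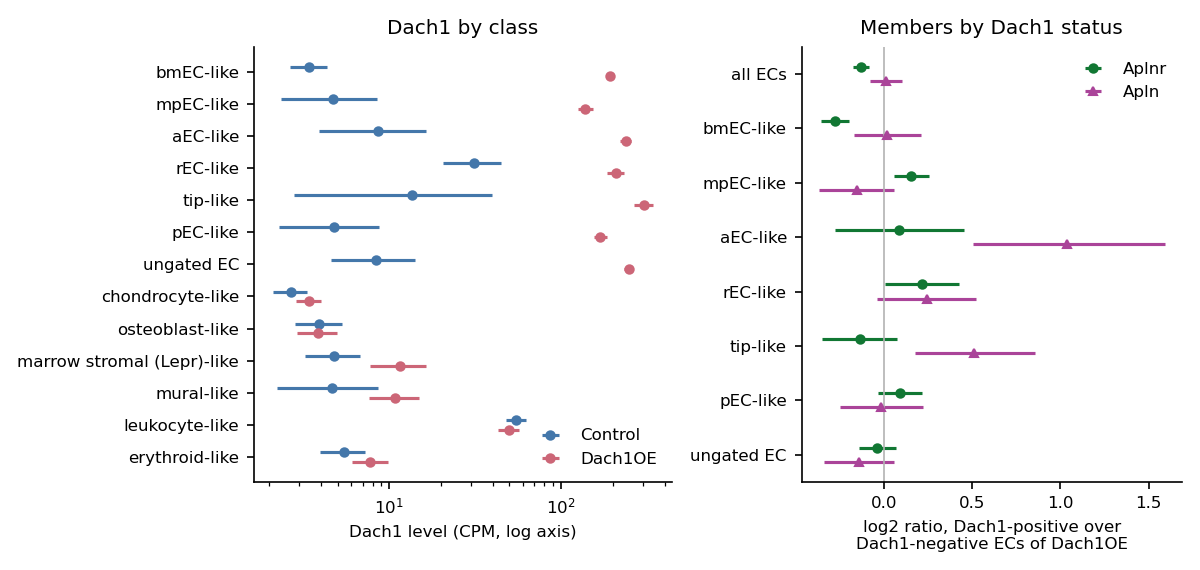
Left, Dach1 level on a log axis in CPM for 7 EC gates and 6 other classes in Control (blue) and Dach1OE (red), with exact Poisson intervals; right, log2 ratio of Aplnr (green circles) and Apln (purple triangles) in Dach1-positive over Dach1-negative ECs of Dach1OE, with exact conditional binomial intervals. Dach1 of Dach1OE lies between 139 and 303 CPM in all 7 gates, and Aplnr ratios lie on both sides of 0.

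Other genes of the pathway were counted from 6 lists with 38 genes in all, of which 36 had at least 50 UMIs in ECs. At least 1.5-fold higher in Dach1OE were 4 and lower 3, or about the share of all genes given above, and the median log2 ratio was −0.024 beside 0.038 over all genes. Of the peptide supply and breakdown list, Apela, which encodes the receptor's second ligand, gave 8 UMIs in ECs of each library. Outside ECs Apela was low as well, at 2.98 and 2.64 CPM in chondrocyte-like (84 and 112 UMIs), 4.66 CPM in both libraries in mural-like (10 and 16 UMIs) and 2.06 and 5.35 CPM in marrow stromal cells (13 and 14 UMIs). Furin, a protease that cleaves precursor proteins, was at 57.3 and 65.1 CPM in ECs, and Mme, which encodes the peptidase neprilysin, was lower in Dach1OE at 4.50 and 2.95 CPM (−0.61, −1.03 to −0.20). Marrow stromal cells, of which 2207 were gated in Control and 871 in Dach1OE, held Mme at 818 and 751 CPM, and the part of their RNA in the EC value was not tested.

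None of the 8 receptor coupling genes, which encode G-protein subunits, arrestins and a receptor kinase, passed 1.5-fold, and Gnai2, an inhibitory G-protein subunit and the one of highest level, was at 1454 and 1879 CPM (0.37, 0.35 to 0.39). Of the 10 endothelial effectors 1 was at least 1.5-fold higher and none lower, beside 8.15% and 6.39% of all genes. That gene, Nos3, the endothelial nitric oxide synthase, was at 79.6 and 136 CPM (0.78, 0.70 to 0.85). Within gates Nos3 was at 53.4 and 74.0 CPM in bmEC-like, 251 and 285 CPM in aEC-like and 69.3 and 134 CPM in pEC-like cells. Besides the few lymphatic-like cells, only rEC-like cells had less Nos3 in Dach1OE, at 185 and 164 CPM (168 and 232 UMIs). Klf2, a flow-responsive transcription factor with the highest level of that list, was at 244 and 272 CPM over all ECs but at 688 and 333 CPM in rEC-like cells (623 and 471 UMIs). None of the 5 regulators of Apln passed 1.5-fold. Epas1, which encodes a hypoxia-inducible factor subunit, led that list at 507 and 534 CPM.

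Of 8 sprouting genes, the same list as the tip gate, 3 were higher and 1 lower over all ECs, beside 8.15% and 6.39% of all genes. Tip-like and aEC-like cells numbered 75 and 334 in Control and 272 and 1004 in Dach1OE, which enters these sums. The higher genes were Pgf, a growth factor of the VEGF family, at 3.84 and 9.30 CPM (1.28, 0.95 to 1.61), the chemokine receptor gene Cxcr4 at 16.4 and 39.0 CPM (1.25, 1.09 to 1.41), and Nid2, a basement membrane gene, at 83.3 and 154 CPM (0.88, 0.81 to 0.96). Esm1, a marker of tip cells, was lower at 13.8 and 8.13 CPM (−0.76, −1.0 to −0.52), and marrow stromal cells held it at 1039 and 838 CPM. Of its EC UMIs 157 of 392 in Control and 80 of 229 in Dach1OE were in aEC-like cells, at 149.6 and 23.3 CPM. Tip-like cells held less Esm1, at 58.6 and 15.1 CPM (13 and 12 UMIs). Within gates the levels did not all go the same way. Nid2 was at 59.6 and 194 CPM in rEC-like and 32.6 and 68.0 CPM in bmEC-like cells, and Cxcr4 had 19 and 54 UMIs in rEC-like cells. In tip-like cells, a gate that itself uses UMIs of these genes, Pgf was at 117 CPM in Control and 46.7 CPM in Dach1OE (26 and 37 UMIs) and Cxcr4 at 226 and 84.5 CPM (50 and 67 UMIs), while Nid2 was at 523 and 517 CPM. Kcne3 (469 and 349 CPM) and Angpt2 (99.2 and 76.9 CPM) were also lower there, and none of the 8 was higher. In aEC-like cells Cxcr4 was at 187 and 177 CPM. Trp53i11 had the highest level in the list, 415 and 387 CPM. Among the 3 venous genes Nr2f2, a transcription factor of vein identity, was lower at 795 and 455 CPM (−0.80, −0.84 to −0.77), while Ephb4 and Nrp2 stayed under 1.5-fold. Nr2f2 was lower in every EC gate, at 952 and 691 CPM in bmEC-like and 394 and 362 CPM in mpEC-like cells, both under 1.5-fold. In rEC-like cells it was at 592 and 321 CPM, and the smaller bmEC-like share of Dach1OE also enters the value over all ECs.

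The genes whose levels were most like those of the members were found over 33 gated units, each a class or EC gate of 1 library with at least 50 cells, by Pearson correlation of log2(CPM + 1) among 11137 genes. Aplnr and Apln stood at r = 0.95 with each other over all units and 0.92 over the 15 EC units alone. For Aplnr the leading genes were Fam167b (0.98), Plvap (0.98), which encodes a protein of endothelial fenestral diaphragms, Slco2a1 (0.97), a prostaglandin transporter, Gpihbp1 (0.97), which anchors lipoprotein lipase in capillaries, and Gm32688 (0.96). For Apln they were Rbfox3 (0.95), Aplnr, A330009N23Rik (0.94), Nos2 (0.94), the inducible nitric oxide synthase, and Hecw2 (0.94). Over EC units alone other genes led, Abcg1 (0.97), Exoc3l2 (0.94), Esr1 (0.94), Lnx2 (0.94) and Smox (0.94) for Aplnr and Rgcc (0.96), Nt5c3b (0.95), Esr1 (0.95), Neurl1b (0.94) and Vwa1 (0.94), itself an mpEC gate marker, for Apln. The units share 2 libraries and the contrast between ECs and other classes, and these values are descriptions.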

How the data were processed

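Single-cell RNA sequencing was run on the BD Rhapsody system, 1 library per group. The deposited tables list counts above 0 per cell and gene. Per the file headers these were made with the BD Rhapsody WTA Analysis Pipeline 1.11 (the methods state another version) on GRCm38 with GENCODE vM19, with intronic reads counted; the labels give mm10. Whether counting used strand is not given in the sources used here. The authors' error-corrected (RSEC) UMI counts, 143986818 in Control and 166999989 in Dach1OE, were used unnormalized. Doublets were left in and removed in an alternative with Scrublet.

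Cells were gated on UMIs of fixed marker lists. UMIs were summed per gate and divided by the gate's total (CPM), with 95% exact Poisson intervals; ratios have exact conditional binomial and shares exact Clopper-Pearson intervals. All cover counting error only, and cells are no replicates. For shares each cell was thinned to 1000 UMIs. A gene was counted as higher or lower from 1.5-fold, among genes with at least 50 UMIs. Pathway genes past 1.5-fold with an interval clear of 0, the one of highest level in each list and the 5 genes most like each member are named. The ratio and thinning steps were tested on simulated data. The members and all lists were chosen with earlier results of these data known. Python 3.11.15, scanpy 1.11.5, scipy 1.17.1 and edgeR 4.0.16 (TMM scaling only) were used. Alternatives changed the molecule count, scaling, cell filter, gates, clusters, weights and sex of cells. Lists also held markers of 9 other classes. Pathway genes that are not named are counted in the totals of their lists only, and no value is reported here for them.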

Additional observations from a re-analysis of the deposited data

Results flagged for a closer look

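Some differences between Dach1OE and Control had opposite signs in different EC gates, each with a counting interval clear of 0. With 1 library per group these contrasts were not tested against each other. For Apln the log2 ratio was positive in bmEC-like (0.52), rEC-like (1.38), tip-like (0.43) and pEC-like cells (0.45) and negative in ungated ECs (−0.19). The interval held 0 for the cluster named tip (0.14), which held under 10% of the tip-like cells of either library, and for ungated ECs from 2000 UMIs per cell (−0.16). In cells with Y-linked UMIs it also held 0 in pEC-like (0.27, −0.083 to 0.63) and ungated ECs (−0.20, −0.55 to 0.16). Ungated ECs, the only gate with a negative Apln ratio clear of 0, lay mostly in different clusters in the 2 libraries. For Aplnr the log2 ratio was positive in rEC-like cells (0.39) and negative in bmEC-like (−0.14), aEC-like (−0.77) and ungated ECs (−0.28). The interval held 0 in clusters named bmEC (−0.011) and aEC (−0.15), and in cells with Y-linked UMIs of the rEC-like (−0.0061), bmEC-like (0.0079) and aEC-like gates (−0.30).

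Cells of either sex also went opposite ways for Aplnr, though not in every gate. Over all ECs the log2 ratio was −0.11 in cells with Xist and 0.18 in cells with Y-linked UMIs, and in pEC-like cells it was −0.15 and 0.18. The difference between the sexes was not tested, and sex and mouse cannot be told apart here.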

How the results depend on the processing

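The ratios of both genes, their shares in ECs, the Dach1 split over all ECs and the counts of list genes, 24 results in all, were recomputed under alternatives, 1 choice at a time, and 96 of 122 values stayed within the counting interval of the value reported or, for the 4 counts of list genes, at the same count. The Apln ratio over all ECs was 0.66, past 1.5-fold, and left its interval only with the weights of the gates. It was 0.35 with Control weights and 0.37 with equal weights, both under 1.5-fold, and was above 0 in every alternative. The Aplnr ratio of −0.0028 took either sign at small size, 0.038 under 10% mitochondrial UMIs, 0.035 from 2000 UMIs per cell, −0.090 with Control weights, −0.050 with equal weights, −0.11 in cells with Xist and 0.18 in cells with Y-linked UMIs. Leaving out the cells whose index is in both libraries, an alternative chosen after seeing the data, moved neither ratio beyond its interval, and TMM scaling shifted every log2 ratio by −0.013.

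Clusters named by the subtype lists, in place of gates, gave 0.85, past 1.5-fold, for Apln and −0.011 for Aplnr in bmECs, 0.25 (0.14 to 0.35) and −0.044 in mpECs, and −0.15 for Aplnr in aECs, which ended the 1.5-fold call there. Apln was at 1.70 in rEC-like cells with at least 3 markers, and under 10% mitochondrial UMIs at 0.92, past 1.5-fold, in tip-like cells and −0.39 in ungated ECs. Smaller values, with intervals that held 0, were 0.14 for the cluster named tip, which held other cells than most of the tip-like gate, and −0.16 for ungated ECs from 2000 UMIs per cell. The largest cluster of Dach1OE among those named bmEC was named on a mean share of cells with a marker only 0.0096 above that of other ECs, against 0.14 to 0.48 for the other clusters of that name, and the tip cluster on 0.039. The mpEC cluster of 10 Control and 1083 Dach1OE cells was named on 0.088, against 0.20 for the other cluster of that name. The rEC-like ratio of Apln stayed above 1.5-fold under all 6 alternatives. The Dach1-positive over Dach1-negative ratio became 0.024 for Aplnr, the opposite sign, and 0.15 (0.039 to 0.27) for Apln with equal weights of the gates. Shares of ECs with a UMI follow the thinning depth by construction. At 500 and 2000 UMIs they were 3.96% and 11.3% for Apln and 23.5% and 53.2% for Aplnr in Control, and 5.25% and 17.1% and 21.4% and 49.2% in Dach1OE. No paired analysis was possible because each group has 1 library. Levels by gate, receptor per ligand, detection in the same cell, Dach1 by gate and correlations were not recomputed. The cause of these shifts was not tested, and depth limits values of under about 20 UMIs.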
